A study of Mus musculus with 6 samples.

Results

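Distal nephron transport and marker genes were followed through a single-cell and bulk data set of mouse glomeruli: Slc12a1, Slc12a3, Umod, Pvalb, Calb1, S100g, Klk1, Fxyd2, Aqp2 and Hsd11b2. The 10 genes were taken by name, and all 10 had a row among the 28327 genes with a row in at least 1 Drop-seq table and among the 49492 rows of each bulk table. Drop-seq, which reads single cells in droplets and counts transcripts by unique molecular identifier (UMI), was run as 4 libraries of dissociated glomerular cells fixed in 80% methanol. Bulk mRNA sequencing was run as 1 library of dissociated, sorted and methanol-fixed cells (95 ng of RNA) and 1 library of whole, live, unfixed glomeruli (500 ng of RNA). The mice behind all 6 libraries were males aged 8 weeks, of the CD1 IGS outbred strain. The labels do not tie libraries to animals, so the spread between them may be technical.

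The distal nephron, taken here from the thick ascending limb of the loop of Henle onward, reabsorbs the last part of the filtered salt and water. Its thick ascending limb carries the furosemide-sensitive cotransporter Slc12a1, and the distal convoluted tubule that follows carries the thiazide-sensitive cotransporter Slc12a3. The connecting tubule handles calcium and secretes kallikrein, and the principal cells of the collecting duct take up water through Aqp2 under the control of vasopressin. The distal tubule of each nephron returns to touch its own glomerulus at the vascular pole.

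The 10 genes lie at separate loci, given here as GENCODE positions on GRCm38. Slc12a1 is on chromosome 2 (125152505 to 125230002, plus strand), Slc12a3 on chromosome 8 (94329201 to 94366214, plus strand) and Umod on chromosome 7 (119462711 to 119479282, minus strand). Pvalb is on chromosome 15 (78191114 to 78206400, minus strand), Calb1 on chromosome 4 (15881264 to 15908064, plus strand) and S100g on chromosome X (162961992 to 162964599, minus strand). Klk1 is on chromosome 7 (44225360 to 44229618, plus strand), Fxyd2 on chromosome 9 (45399669 to 45410278, plus strand), Aqp2 on chromosome 15 (99579055 to 99584547, plus strand) and Hsd11b2 on chromosome 8 (105518755 to 105523988, plus strand). Of these loci, 4 overlap another gene on the other strand: Slc12a1 with Gm14002, Umod with Gm44588, S100g with Ctps2 and Klk1 with Gm10109. Whether the authors counted by strand is not given in the sources used here.

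RefSeq promoters on GRCm38.p6 were at hand for 7 members, and none was printed for Calb1, Fxyd2 or Hsd11b2. The 4 shown are those of the convoluted tubule gene Slc12a3 (chr8:94328958-94329207, plus strand), the gene Umod (chr7:119479263-119479512, minus strand), and the connecting tubule genes S100g (chrX:162964600-162964849, minus strand) and Klk1 (chr7:44225110-44225359, plus strand), as examples of 2 genes higher in distal convoluted tubule-like cells than in connecting tubule and principal-like cells and 2 lower there, among the members whose windows held a match. Each line gives the 250 bases before the start, 5′ to 3′, and the capitals mark matches to the searched letters.
Slc12a3: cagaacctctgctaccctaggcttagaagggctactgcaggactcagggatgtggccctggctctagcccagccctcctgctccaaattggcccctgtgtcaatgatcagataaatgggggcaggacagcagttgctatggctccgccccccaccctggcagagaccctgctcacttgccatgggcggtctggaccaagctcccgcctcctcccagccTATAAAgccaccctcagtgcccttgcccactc
Umod: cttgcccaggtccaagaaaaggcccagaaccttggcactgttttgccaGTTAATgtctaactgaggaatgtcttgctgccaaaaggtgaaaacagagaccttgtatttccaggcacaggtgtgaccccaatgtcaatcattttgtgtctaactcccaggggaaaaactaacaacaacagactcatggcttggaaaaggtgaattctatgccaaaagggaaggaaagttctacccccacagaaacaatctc
S100g: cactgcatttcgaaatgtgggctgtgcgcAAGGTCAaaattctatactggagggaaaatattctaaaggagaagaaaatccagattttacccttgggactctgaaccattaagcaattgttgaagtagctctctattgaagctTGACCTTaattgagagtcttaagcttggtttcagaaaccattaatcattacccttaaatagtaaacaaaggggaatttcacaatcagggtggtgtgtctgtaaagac
Klk1: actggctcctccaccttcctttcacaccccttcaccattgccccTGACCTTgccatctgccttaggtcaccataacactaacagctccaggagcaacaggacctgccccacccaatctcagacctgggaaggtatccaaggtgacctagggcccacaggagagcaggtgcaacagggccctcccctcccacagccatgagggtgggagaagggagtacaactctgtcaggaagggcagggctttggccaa
The searched letters were TATAAA (the TATA box, sense strand), GTTAAT (a homeodomain half-site), AAGGTCA (the estrogen-related receptor element) and TGTTCT (a half-site of the mineralocorticoid and glucocorticoid receptors), the last 3 on both strands. No 2 matches in these members overlapped. TATAAA began 32 bases before the start of Slc12a3, and 7.59% of 32851 mouse promoters held it. GTTAAT began 202 bases before the start of Umod (6.43% of promoters). AAGGTCA stood in S100g 221 bases before the start and, on the other strand, 107 bases before it, and in Klk1 206 bases before it on the other strand (4.08% of promoters). TGTTCT stood in Aqp2 179 bases before its start on the other strand (16.1% of promoters). These are matches of letters in a window and nothing more was measured there.

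The 4 Drop-seq tables held 15465 barcodes, and 13993 passed limits of 300 genes or more and 20% mitochondrial UMIs or fewer. Libraries held 3528543 to 6411775 UMIs, and kept cells had medians of 816 to 1156 UMIs per library. Clustering without the 10 members or their pathway lists gave 10465 podocyte-like, 1865 endothelial-like, 900 tubular-like, 361 parietal epithelial-like and 331 mural-like cells, with 49 immune-like and 22 unnamed cells. Tubular-like cells made up 6.25% ± 2.68 of the kept cells (SD, n = 4 libraries), with 196, 412, 147 and 145 cells in libraries 1 to 4. They were re-clustered into 554 distal convoluted tubule-like (DCT-like), 154 connecting tubule and principal-like (CNT/PC-like), 53 intercalated-like and 17 thick ascending limb-like (TAL-like) cells, and 122 cells whose leading genes were podocyte genes and which stayed unnamed, called mixed here. The proximal tubule markers were near 0 in tubular-like cells: their summed share was 0.00211% of UMIs, 5 of 8 had a UMI, and Slc34a1, the proximal phosphate transporter, had 0. Podocyte markers held 0.612% ± 0.173 of UMIs in mixed cells and 0.0347% ± 0.00580 in DCT-like cells, against 1.74% ± 0.105 in podocyte-like cells (SD, n = 4). Tubular-like cells had a median mitochondrial share of 14.5% of UMIs, against 4.26% in podocyte-like cells, so the 20% limit lies close to them. No kept barcode stood in all 4 libraries, 3 stood in more than 1, and 1 of these was tubular-like.

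All 10 members were higher in tubular-like cells than in the mean of the other 4 glomerular types, in 4 of 4 libraries each. Single types could lie higher in 1 library: in mural-like cells of library 2, Aqp2 was at 216% and Hsd11b2 at 130% of the tubular-like level. Of 11202 genes tested (edgeR, quasi-likelihood, with the library as a block and a threshold of 0.05 on p after Benjamini-Hochberg adjustment), 25.5% were higher in tubular-like cells and 17.2% were lower. The cell classes came from the same cells, clustered on other genes, so these p-values measure the difference against the spread between libraries and are no independent evidence of the classes. The test took the mean of the other types on the log scale, while their mean CPM, used for the direction by library, is a plain mean. Slc12a3, Umod, Pvalb, Calb1, S100g, Klk1 and Fxyd2 had at least 10 counts in 4 or more sums of the other types as well, and all 7 passed the test. Slc12a1, Aqp2 and Hsd11b2 passed the filter on low counts through the tubular-like sums alone, so their tests had to find a difference. For these 3 the pooled tubular-like level was 74.6-fold (49.1 to 118), 246-fold (145 to 452) and 385-fold (208 to 807) the podocyte-like level, with 95% intervals from counting error only. Library 2 held 10 of the 14 Aqp2 UMIs in podocyte-like cells, and by library the podocyte-like level of Aqp2 was 0.0891% to 0.799% of the tubular-like one. In podocyte-like cells no member passed 63.4 CPM (the usual scaled count, a gene's share of all UMIs of the class in a library), the level of Fxyd2 in library 2. The parietal epithelial-like cells had no UMI of Slc12a1 or Aqp2.

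**Figure D1:**
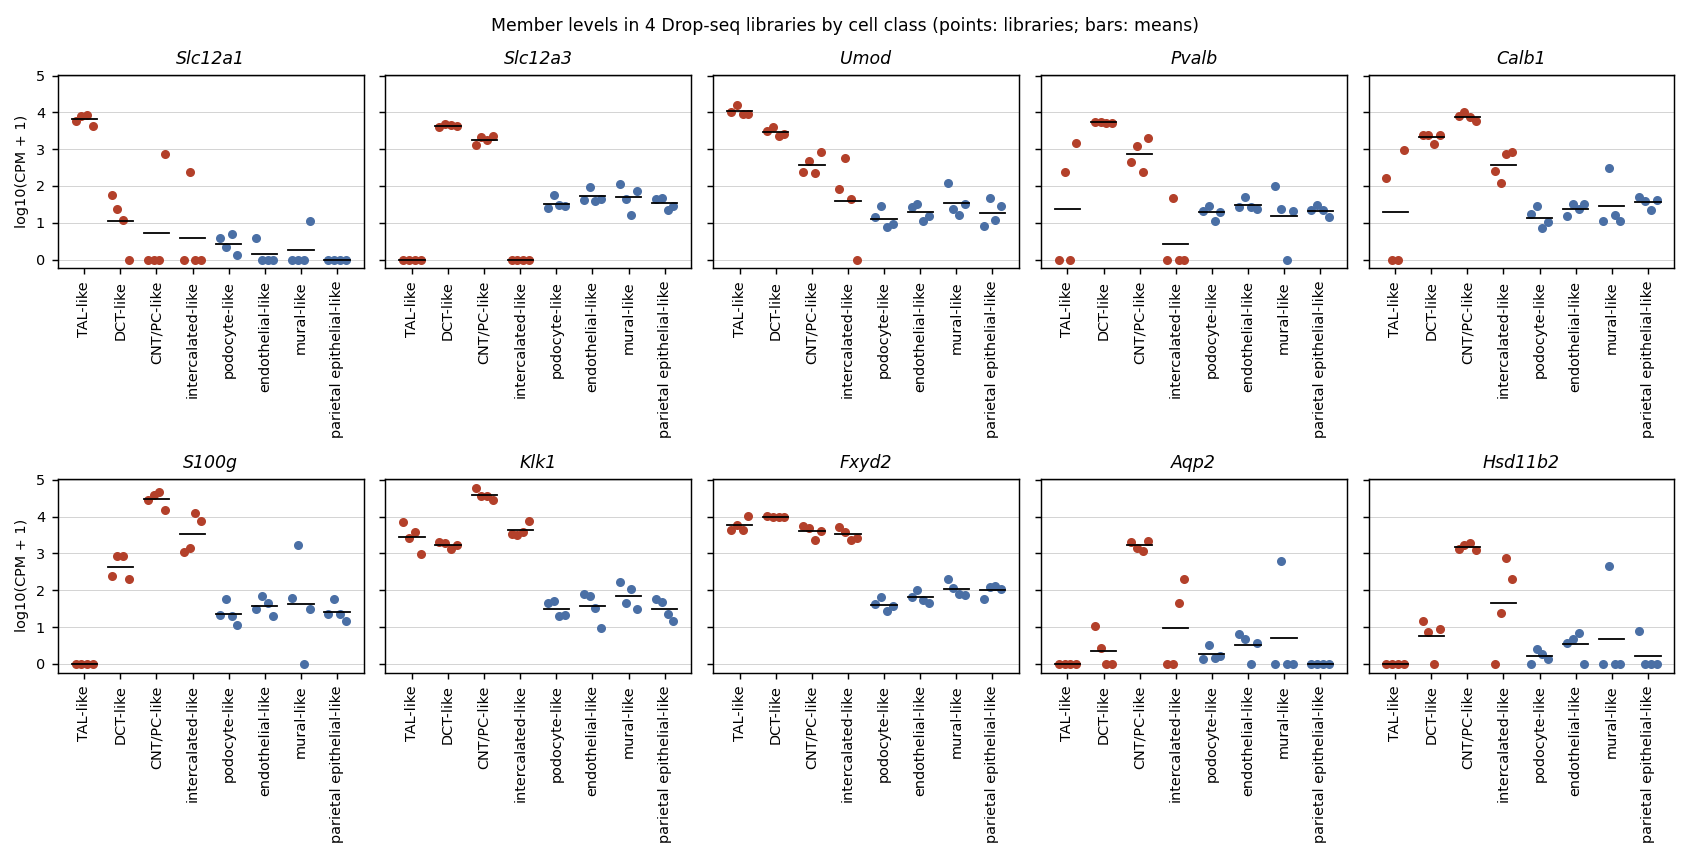
Levels of the 10 members, as log10(CPM + 1), in 4 tubular classes (red) and 4 other glomerular classes (blue). Each point is 1 Drop-seq library and each bar the mean of the 4 log values. Slc12a1 is high in TAL-like cells, Slc12a3 and Pvalb are highest in DCT-like cells, and S100g, Klk1, Aqp2 and Hsd11b2 are highest in CNT/PC-like cells.

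Slc12a1, the sodium-potassium-chloride cotransporter of the thick ascending limb, was highest in the 17 TAL-like cells. Its level was 5959, 7765, 8436 and 4380 CPM in TAL-like cells of libraries 1 to 4, from 6, 4, 5 and 2 cells. In DCT-like cells it was 56.0, 22.9, 11.0 and 0 CPM. The TAL-like libraries lay above every library of every other class. In CNT/PC-like cells it was 0 in libraries 1, 2 and 3 and 755.5 CPM in library 4, where all 23 UMIs came from 1 barcode. TAL-like cells held 62.5% of the Slc12a1 UMIs in kept cells, and DCT-like cells 8.83%. In DCT-like cells, 11 of the 12 UMIs in library 1 and 7 of the 14 in library 2 came from 1 barcode each. The TAL-like cells were too few for a test.

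Umod encodes uromodulin, the most abundant protein of normal urine, which is made in the thick ascending limb. Its level was 10308, 15412, 9123 and 9246 CPM in TAL-like cells, and 3092, 3883, 2284 and 2610 CPM in DCT-like cells. In CNT/PC-like cells it was 234, 462, 217 and 854 CPM. The TAL-like, DCT-like and CNT/PC-like libraries did not overlap. The level was highest in TAL-like cells, yet 76.7% of Umod UMIs lay in DCT-like cells and 5.73% in TAL-like cells, of which there were 17 against 554 DCT-like cells. Pooled, the TAL-like level was 3.49-fold the DCT-like level (95% interval 3.10 to 3.92, counting error only).

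Slc12a3, the sodium-chloride cotransporter of the distal convoluted tubule, was detected in 95.8% of DCT-like cells, and in 84.8% after each cell was thinned to 500 UMIs. Its level was 3936, 4706, 4589 and 4187 CPM in DCT-like cells. In CNT/PC-like cells it was 1276, 2101, 1733 and 2201 CPM. The ranges did not overlap. Slc12a3 had 0 UMIs in the 17 TAL-like and the 53 intercalated-like cells. DCT-like cells held 71.9% of its UMIs, mixed cells 12% and CNT/PC-like cells 8.72%.

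Pvalb, a calcium-binding parvalbumin that marks the early distal convoluted tubule, had a UMI in 93.3% of DCT-like cells. Its level was 5433, 5457, 5226 and 5040 CPM in DCT-like cells and 449, 1239, 235 and 2004 CPM in CNT/PC-like cells. The DCT-like libraries all lay above the CNT/PC-like ones, whose values spread widely. In library 4, 46 of the 61 CNT/PC-like Pvalb UMIs came from 1 barcode. In TAL-like cells Pvalb had 5 UMIs in all.

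Fxyd2, the gamma subunit that modulates the sodium pump, was found in every tubular class. Its level was 10362, 9896, 9887 and 9857 CPM in DCT-like cells. In CNT/PC-like cells it was 5552, 4867, 2383 and 4106 CPM. In TAL-like cells it was 4349, 5882, 4218 and 10706 CPM, a range that overlapped the DCT-like one. The intercalated-like range, 2297 to 5314 CPM, overlapped the CNT/PC-like range. Fxyd2 had a UMI in 97.1% of DCT-like cells, 60.4% of CNT/PC-like cells and 5.01% of podocyte-like cells before thinning. After thinning to 500 UMIs these shares were 92.5%, 50% and 2.39%.

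The calbindins and kallikrein were highest in CNT/PC-like cells. Calb1, the calbindin that ferries calcium across the cell, was 2411, 2448, 1367 and 2375 CPM in DCT-like cells and 7798, 10223, 7312 and 5683 CPM in CNT/PC-like cells. S100g, the smaller calbindin, was 247, 847, 867 and 203 CPM in DCT-like cells and 27436, 39353, 46383 and 14716 CPM in CNT/PC-like cells. Both genes were higher in every CNT/PC-like library than in any DCT-like library. Klk1, tissue kallikrein, was 2047, 1923, 1350 and 1733 CPM in DCT-like cells and 61250, 35264, 36453 and 28874 CPM in CNT/PC-like cells. In library 4, a single barcode held 229 of the 448 S100g UMIs, and 468 of the 879 Klk1 UMIs also came from 1 barcode. That library's CNT/PC-like values come from 16 cells. Calb1 UMIs were divided between the classes, with 39.8% in DCT-like and 44.3% in CNT/PC-like cells when pooled. As a mean over libraries its shares were 42.6% ± 12.9 in DCT-like and 39.1% ± 16.2 in CNT/PC-like cells (SD, n = 4), and these shares overlapped. S100g had 82.1% and Klk1 75.0% of UMIs in CNT/PC-like cells.

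Aqp2, the vasopressin-regulated water channel, and Hsd11b2, which inactivates corticosterone so that the mineralocorticoid receptor answers to aldosterone, were the members most restricted to CNT/PC-like cells. Aqp2 was 9.33, 1.64, 0 and 0 CPM in DCT-like cells, from 3 UMIs in 554 cells, and 2084, 1418, 1156 and 2201 CPM in CNT/PC-like cells. Hsd11b2 was 14.0, 6.54, 0 and 7.97 CPM in DCT-like cells, from 9 UMIs, and 1348, 1701, 1932 and 1248 CPM in CNT/PC-like cells. CNT/PC-like cells held 90.6% of Aqp2 UMIs and 87.6% of Hsd11b2 UMIs. Neither gene had a UMI in the 17 TAL-like cells. Both genes also appeared in mural-like cells of library 2, at 621 CPM for Aqp2 and 466 CPM for Hsd11b2, where 28 Aqp2 UMIs came from 2 of 41 cells.

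**Figure D2:**
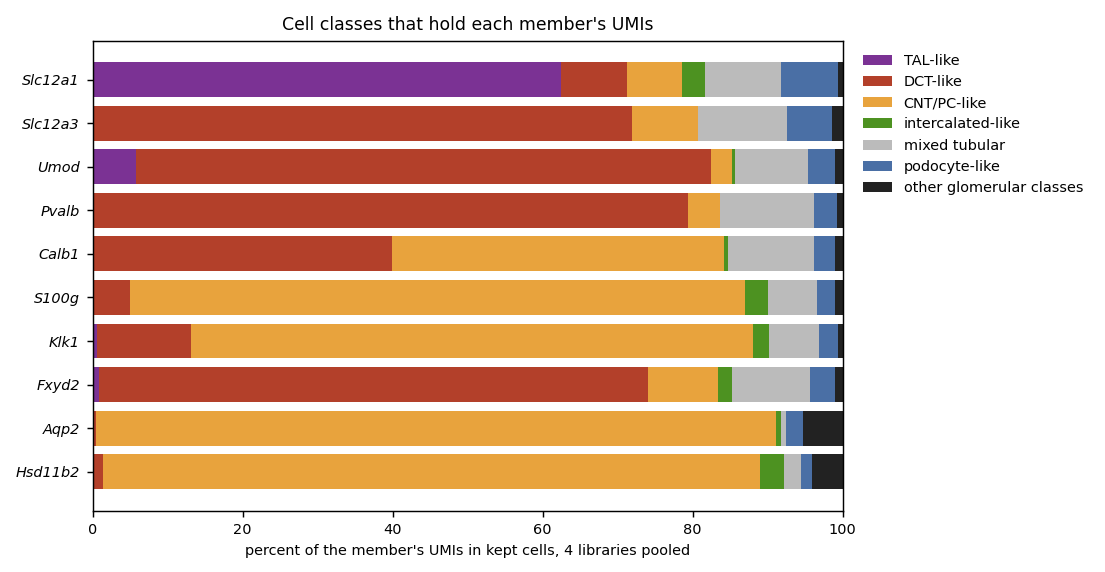
Percent of each member's UMIs held by each cell class in kept cells, 4 libraries pooled. DCT-like cells hold the largest share for Slc12a3, Umod, Pvalb and Fxyd2, CNT/PC-like cells for S100g, Klk1, Aqp2 and Hsd11b2, and TAL-like cells for Slc12a1, while Calb1 is divided between DCT-like and CNT/PC-like cells.

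The 2 classes large enough for a test were set against each other, DCT-like over CNT/PC-like. Slc12a3, Umod, Pvalb and Fxyd2 were higher in DCT-like cells, and Calb1, Klk1 and S100g were lower, each in 4 of 4 libraries. Of 2959 genes tested, 5.31% were higher and 3.89% lower by the same edgeR test. Slc12a1 did not pass the filter on low counts, and Aqp2 and Hsd11b2 passed it through the CNT/PC-like sums alone, so their tests had to find a difference. The log2 difference was 1.24 ± 0.13 (SE) for Slc12a3 (adjusted p = 1.75e-08) and 1.25 ± 0.15 for Fxyd2 (adjusted p = 1.01e-07). It was larger for Umod, at 2.90 ± 0.20 (adjusted p = 6.48e-13), and for Pvalb, at 2.58 ± 0.23 (adjusted p = 4.71e-10). Calb1 differed by -1.90 ± 0.15 (adjusted p = 2.88e-11), Klk1 by -4.51 ± 0.16 and S100g by -6.03 ± 0.18. Klk1b5, a copy of Klk1, was not left out of the clustering and was a leading gene of the CNT/PC-like class. The Klk1 test is therefore not independent of how that class was drawn. Pooled over libraries, the ratio of DCT-like to CNT/PC-like level was 0.00154 for Aqp2 (95% interval 0.000316 to 0.00452) and 0.00435 for Hsd11b2 (0.00198 to 0.00832), from counting error only.

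These differences kept their direction in every setting in which the gene was tested, and their size depended on where the border between the classes was drawn. When the Klk1b genes, near-identical copies of Klk1, were also left out of the clustering, the Slc12a3 difference was 2.70, against 1.24 with them. In that setting the S100g difference was -4.27 and the Klk1 difference -3.49. DESeq2 called 55 genes higher and 66 lower in place of 157 and 115. Aqp2 and Hsd11b2 did not pass the low-count filter when any 1 library was left out.

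Finer clustering at resolution 1.0 divided the CNT/PC-like cells into a pair of patterns, given here as descriptions. Cluster 3 held 81 cells led by Klk1b genes, and 76 of them were CNT/PC-like, although its markers were nearest to the distal convoluted tubule list. Cluster 8 held 66 cells led by Fxyd4, Avpr2 and Aqp3, an ion-pump regulator, the vasopressin receptor and a basolateral water channel, and all 66 were CNT/PC-like. Klk1 was 55061 CPM in cluster 3 and 10267 CPM in cluster 8, with libraries pooled. S100g was 41247 CPM in cluster 3 and 33950 CPM in cluster 8. Calb1 was 11219 CPM in cluster 3 and 4620 CPM in cluster 8. Slc12a3 was 2447 CPM in cluster 3 and 29.1 CPM in cluster 8, from 1 UMI in library 1 and 2 in library 2. Fxyd2 was 5991 CPM in cluster 3 and 610 CPM in cluster 8. The opposite held for the principal cell genes, with Aqp2 at 195 CPM in cluster 3 and 4901 CPM in cluster 8, and Hsd11b2 at 707 CPM in cluster 3 and 4155 CPM in cluster 8. By library, Aqp2 was between 0 and 536 CPM in cluster 3, and 9323, 4376, 2975 and 7760 CPM in cluster 8. In cluster 8 the Klk1 level of library 3 was 108 CPM, from 2 UMIs, against 10909 to 20103 CPM in the other libraries. Reads of Klk1 and the Klk1b copies that lead cluster 3 may be divided between genes by the authors' counting, so Klk1 values there are uncertain.

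**Figure D3:**
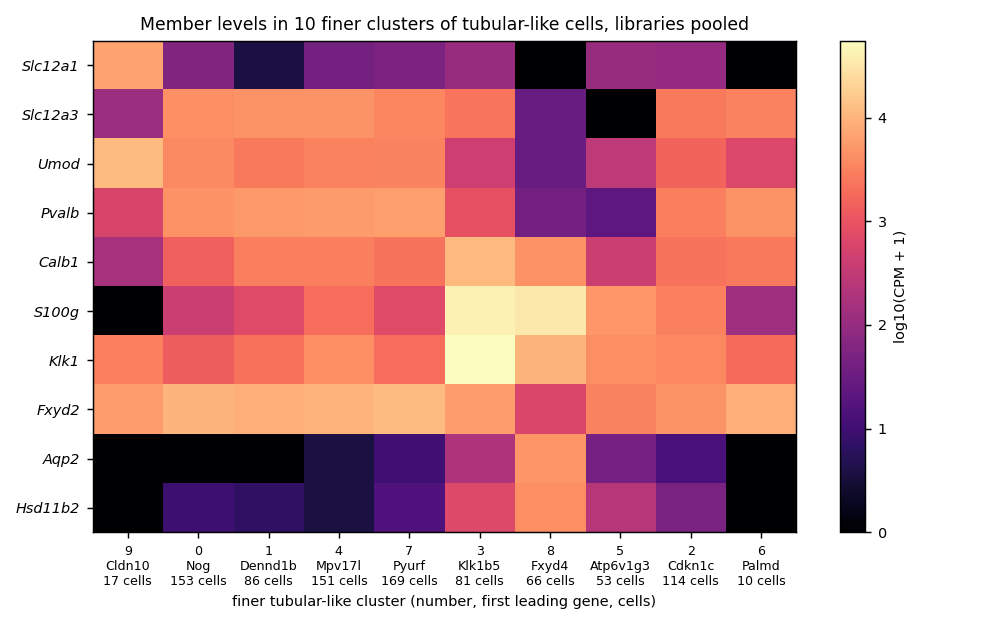
Pooled level, as log10(CPM + 1), of each member in 10 finer clusters of tubular-like cells, named by number and first leading gene. Clusters 0, 1, 4 and 7 have high Slc12a3, Pvalb and Fxyd2, while clusters 3 and 8 differ in Slc12a3, Fxyd2, Aqp2 and Hsd11b2.

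Apart from cluster 3, 4 finer clusters were named distal convoluted tubule-like by their markers. Slc12a3 ranged over them from 3538 CPM (cluster 7) to 4784 CPM (cluster 1), and Pvalb from 4517 CPM (cluster 0) to 6093 CPM (cluster 7). Klk1 ranged from 1309 CPM (cluster 0) to 4106 CPM (cluster 4) and S100g from 408 CPM (cluster 0) to 2021 CPM (cluster 4). Cluster 4 held 12 CNT/PC-like cells among its 151 cells.

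Within the DCT-like class, cells were divided by whether they had a Pvalb UMI after thinning to 500 UMIs, which left 463 cells with and 82 without. Klk1 was 1654, 1641, 1391 and 1738 CPM of thinned UMIs in cells with Pvalb, and 7364, 6389, 1846 and 2909 in cells without. It was thus lower with Pvalb in 4 of 4 libraries. Fxyd2 was 11231, 10272, 9826 and 9643 in cells with Pvalb and 7273, 4944, 9538 and 6545 in cells without, higher with Pvalb in 4 of 4 libraries. Slc12a3 was 3769, 4476, 4435 and 3976 in cells with Pvalb and 4091, 6278, 6462 and 4545 in cells without, lower with Pvalb in 4 of 4 libraries. Slc12a1 was 0 in cells with Pvalb of every library, and 727, 333, 154 and 0 in cells without. Thinned Aqp2 and Hsd11b2 UMIs also lay only in cells without Pvalb. The part of cells near the border to other tubular classes in these differences was not tested. Umod had no common direction, at 2519, 3718, 2870 and 2976 with Pvalb and 4636, 3556, 615 and 2364 without. The groups of cells without Pvalb held 22, 36, 13 and 11 cells, and no test was made because the cells were chosen by a measured gene.

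Co-detection in single tubular-like cells, thinned to 500 UMIs to equalise depth, was counted next. Over all 886 thinned cells, Slc12a3 was found in 64.4%, Pvalb in 64.0%, Calb1 in 48.0%, Umod in 44.9% and Klk1 in 41.8%. S100g was found in 26.9%, Hsd11b2 in 8.69% and Slc12a1 in 2.82%. The shares below are to be read beside these. Of 25 cells with a Slc12a1 UMI, 24 also had Umod (96.0%) and 0 had Slc12a3. Of 571 cells with Slc12a3, 463 had Pvalb (81.1%) and 301 had Umod (52.7%), and of 315 cells without Slc12a3, 97 had Umod (30.8%). Of 398 cells with Umod, 301 had Slc12a3 (75.6%), beside 64.4% of all thinned tubular-like cells, and 24 had Slc12a1 (6.03%). Of 238 cells with S100g, 164 had Calb1 (68.9%) and 156 had Klk1 (65.5%). Of 60 cells with Aqp2, 44 had Hsd11b2 (73.3%), 41 had S100g (68.3%) and 4 had Slc12a3 (6.67%). Hsd11b2 was found in 33 of the 826 cells without Aqp2. Without thinning, 2 of 27 cells with Slc12a1 had Slc12a3, and 73 of 82 cells with Aqp2 had Hsd11b2.

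**Figure D4:**
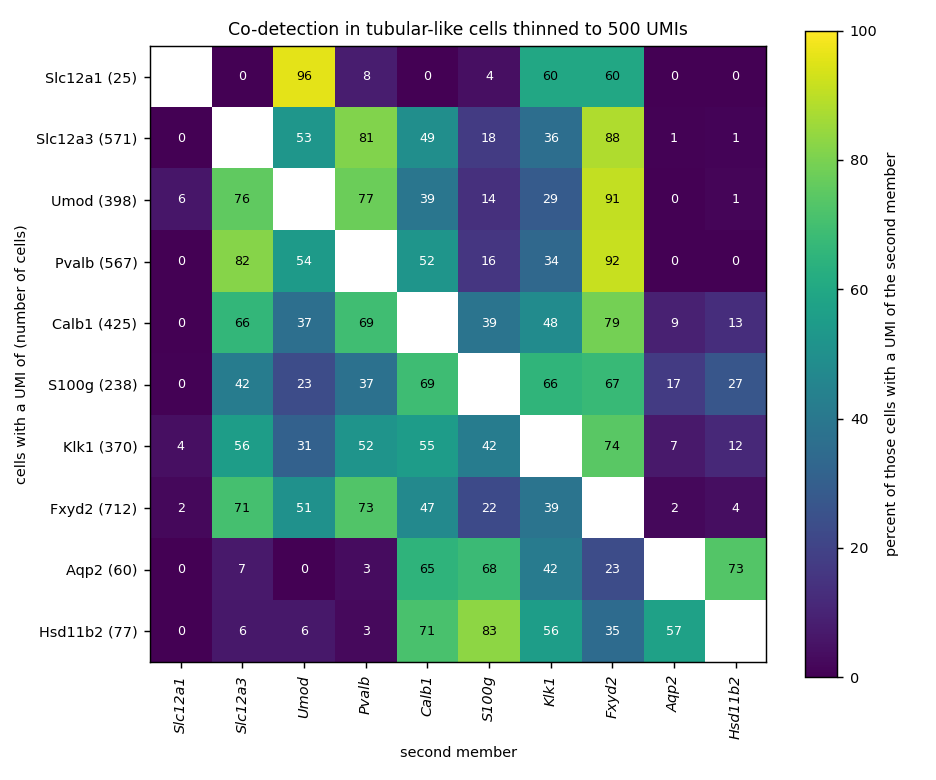
Percent of tubular-like cells with a UMI of the row's member that also had a UMI of the column's member, after thinning to 500 UMIs; the number of cells per row is in parentheses. Slc12a1 and Umod, Slc12a3 and Pvalb, and Aqp2 and Hsd11b2 pair at 96%, 81% and 73%, while Slc12a1 and Slc12a3 share 0 cells. Over all thinned tubular-like cells, Umod, Pvalb and Hsd11b2 were found in 44.9%, 64.0% and 8.69%.

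The members were also counted at low levels in cells of other types. In podocyte-like cells the level was 0.260% (Hsd11b2) to 1.34% (Slc12a1) of the tubular-like level, with libraries pooled. With a limit of 10% mitochondrial UMIs, which removes most tubular-like cells, it was 0.0686% for Hsd11b2, 3.86% for Slc12a1 and 0.0775% for Aqp2, against 0.407% for Aqp2 at the 20% limit. Slc12a3 was at 0.772%, 1.54%, 0.819% and 0.752% of its tubular-like level in libraries 1 to 4, S100g at 0.392%, 0.612%, 0.193% and 0.557%, and Klk1 at 0.356%, 0.544%, 0.239% and 0.463%. Library 2, which had the most tubular-like cells, had the highest podocyte-like level of Slc12a3, 55.1 CPM against 23.6 to 28.5 CPM in the other libraries. The part of the number of tubular-like cells in this was not tested. The UMIs were spread thinly, with 460 Slc12a3 UMIs in podocyte-like cells and at most 8 in 1 barcode. A UMI of Slc12a3 was found in 1.71% of thinned podocyte-like cells (exact 95% interval 1.47% to 1.99%, counting error only) and in 84.8% of thinned DCT-like cells. Slc12a3 had no UMI in TAL-like and intercalated-like cells, where 0 of 17 and 0 of 51 thinned cells allow a share of up to 17.6% and 5.88% of cells with a UMI, taking a count of 0 to allow 3.

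Some counts outside the class in which a member was highest were not of this thin kind. In mural-like cells of library 2, 73 of 75 S100g UMIs and 13 of 14 Calb1 UMIs came from 1 barcode for each gene. The mural-like barcode with the most Aqp2 held 19 Aqp2 and 4 Hsd11b2 UMIs among 1672, and none of the other 8 members. In the 13 intercalated-like cells of library 3, 216 of 296 S100g UMIs came from 1 barcode. Doublets were not removed, and their part in these counts was not tested.

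Genes of the same pathways were higher in tubular-like cells as well. All 18 genes of sodium, potassium and chloride transport were tested, and 14 were higher and 2 lower (median log2 difference 5.38, beside 0.12 over all genes). Over all genes tested, 25.5% were higher and 17.2% lower. Of the 18, 8 passed the low-count filter through the tubular-like sums alone and 2 through the other types alone. Bsnd, the chloride channel subunit barttin, averaged 49.3 CPM in tubular-like cells and had 0 UMIs in the other 4 types. Klhl3, the ubiquitin ligase adaptor that degrades WNK kinases, was 180 ± 15.5 CPM in tubular-like cells and 2.40 ± 0.84 CPM in the mean of the others (SD, n = 4), and the sodium channel subunit Scnn1a 167 ± 11.4 CPM against 3.59 ± 1.61 CPM. Sgk1, the aldosterone-induced kinase, and Nr3c1, the glucocorticoid receptor, were lower, by -1.65 ± 0.19 and -1.42 ± 0.22. They were the 2 genes that passed the filter through the other types alone, where they are higher.

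Of the 12 calcium and magnesium genes, 8 were tested, 7 were higher and 1 lower, with a median log2 difference of 3.47. Over all genes tested, 25.5% were higher and 17.2% lower. The sodium-calcium exchanger Slc8a1 was 67.3 ± 18.9 CPM in tubular-like cells and 8.03 ± 3.37 CPM in the others. Slc8a1 passed the low-count filter through the tubular-like sums alone, and 1 other gene of the list through the other types alone. Egf, whose product stimulates magnesium uptake, was 2209 ± 602 CPM against 92.2 ± 7.85 CPM. Cnnm2, Vdr and Trpm7 were higher too, and the calcium pump Atp2b1 was lower by -0.36 ± 0.12. Of the 14 distal nephron transcription factors, 8 were tested and all 8 were higher, with a median of 6.12, though 7 of them passed the filter through the tubular-like sums alone. They included Sim1, Tfcp2l1 (195 ± 46.9 CPM against 2.48 ± 1.47 CPM), Esrrg and Tfap2b (221 ± 31.1 CPM against 5.76 ± 3.67 CPM). Of the 12 family relatives of the members, 7 were tested, all of which passed the filter through the other types alone, 1 was higher and 3 were lower, with a median of -0.64. The higher one, Fxyd6 (0.97 ± 0.41, edgeR adjusted p = 0.0449), was higher in 2 of 4 libraries, at 29.4 CPM against 31.6 CPM. The log2 difference is against the mean of the other types on the log scale, and the CPM of the others is their plain mean. For a gene high in a single other type these can differ widely. The log2 difference of Slc12a2 was -1.32, less than its CPM would give. Slc12a2, the widespread relative of Slc12a1, was 13.5 ± 6.56 CPM in tubular-like cells and 215 ± 84.3 CPM in the others, Fxyd5 was 4.56 ± 1.33 CPM against 157 ± 30.9 CPM, and Slc12a4 was 7.43 ± 4.71 CPM against 27.4 ± 10.9 CPM. These lists were chosen with earlier results of these data known.

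Pathway genes were compared between DCT-like and CNT/PC-like cells in the same fit, in which 5.31% of genes were higher and 3.89% lower. Of 13 transport genes tested, 2 were higher in DCT-like cells and 1, the potassium channel Kcnj16 (-0.58 ± 0.17), was lower, and the median was 0.00, as over all genes. Of 7 calcium and magnesium genes, Egf (2.67 ± 0.25) and Trpm7 (1.67 ± 0.19) were higher in DCT-like cells. Slc8a1 (-2.50 ± 0.32), the calcium pump Atp2b4 (-1.43 ± 0.35) and the vitamin D receptor Vdr (-0.90 ± 0.24) were lower. Slc8a1 was 38.2 ± 8.65 CPM in DCT-like cells and 222 ± 94.3 CPM in CNT/PC-like cells. The calcium pump Atp2b1 did not pass the test, at 207 ± 31.1 CPM in DCT-like cells and 142 ± 25.6 CPM in CNT/PC-like cells (0.51 ± 0.26, adjusted p = 0.288), nor did Cnnm2 (0.56 ± 0.33, adjusted p = 0.388). Of 7 transcription factors tested, Tfcp2l1 alone passed the test, at 130 ± 30.8 CPM in DCT-like cells and 372 ± 133 CPM in CNT/PC-like cells (-1.54 ± 0.23). All 7 transcription factors tested, 6 of the 13 transport genes and 3 of the 7 calcium and magnesium genes passed the low-count filter through the DCT-like sums alone. No gene of these lists passed it through the CNT/PC-like sums alone, so the genes tested lean to those counted in DCT-like cells. None of the family relatives passed the filter.

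The likeness of other genes to each member was measured as Pearson's r of log2(CPM + 10) over 32 sums, 8 classes in 4 libraries, among 10604 genes, as a description without a test. The sums share libraries, and each rests on a class found in the same cells. Of the genes named here, Fxyd4, Scnn1g and Aqp3 were in the connecting tubule and principal list that named the classes, and Wfdc15b, Wfdc2 and Ldhb in the tubular list. Aqp2 and Hsd11b2 were most like Fxyd4 (r = 0.97 and 0.98), each other (0.95) and the sodium channel subunit Scnn1g (0.94 and 0.95). Pvalb was most like the homeobox gene Emx1 (0.92), a marker of the distal convoluted tubule in the list that named the clusters. Slc12a3 was most like Rnf186, Epb41l3 and Ptgfr (0.92 each), and Umod most like Ppp1r1a (0.94), Wfdc15b (0.94) and Gpx6 (0.92). Slc12a1 was most like Dbi (0.82), Gpx6 (0.79) and Umod (0.78). S100g was most like Aqp3, Cldn4 and Scnn1g (0.91, 0.90 and 0.89), Calb1 like Pgam2 (0.88), and Klk1 like Tspan1 (0.93), Wfdc2 and Ldhb (0.91 each). Fxyd2 was most like Slc25a5, Uqcrfs1 and Cox4i1 (0.98, 0.98 and 0.97), which are mitochondrial proteins. The mitochondrial share of UMIs was higher in tubular-like cells, and its part in this likeness was not tested.

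In bulk RNA, 8 of the 10 members were within 2-fold between dissociated, fixed cells and whole glomeruli, Slc12a1 was lower and Pvalb higher in dissociated cells. Each group was 1 library, with 24555632 reads on genes in the dissociated and 28407317 in the whole library, so there is no test and no replicate check. Among 12692 genes with at least 100 counts, 10.6% were past 2-fold higher in the dissociated library and 19.1% past 2-fold lower, after TMM scaling. Of the 10 members, Pvalb was past 2-fold higher and Slc12a1 past 2-fold lower, and the members' median log2 ratio was -0.03, beside -0.02 over all genes. In bulk RNA, fewer cells of a type and less RNA per cell cannot be told apart.

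Slc12a1 had 516 counts in the dissociated and 2504 in the whole library, or 23.3 and 79.3 CPM, a log2 ratio of -1.76 (95% interval -1.90 to -1.63, here and below from counting error only). Slc12a3 had 632 CPM in the dissociated and 957 CPM in the whole library, a log2 ratio of -0.60 (-0.63 to -0.57). Umod had 276 and 321 CPM in the same order, a log2 ratio of -0.22 (-0.27 to -0.17). The 3 cotransporter and uromodulin genes were thus all lower in the dissociated library, and Slc12a1 most. Markers of the thick ascending limb were lower as well: of 9, 4 passed 100 counts, 2 of these were past 2-fold lower, and their summed level in the dissociated library was 56.4% of that in the whole library. The markers of the distal convoluted tubule summed to 104% of the whole library and those of the connecting tubule and principal cells to 83.1%. Their part in the members' ratios was not tested.

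Pvalb had 89.2 CPM in the dissociated and 42.2 CPM in the whole library, a log2 ratio of 1.08 (0.98 to 1.18). Without a scaling factor it was 0.78, under 2-fold, and the median of all genes was then -0.32. Aqp2 was -0.11 in that scaling, the opposite direction. S100g (89.4 CPM in the dissociated and 64.3 CPM in the whole library, 0.47) and Hsd11b2 (24 and 16.1 CPM, 0.57) were higher, and their intervals did not reach 0. Calb1 (127 and 154 CPM, -0.28) was lower. Klk1 (281 and 288 CPM), Fxyd2 (142 and 145 CPM) and Aqp2 (17.1 and 14.9 CPM) had ratios of -0.04, -0.03 and 0.19 with intervals that held 0, and with DESeq2 size factors Klk1 and Fxyd2 were 0.03 and 0.04. Set over the summed podocyte markers, which were 261% of the whole-library level, all 10 ratios were below 0, from -3.14 for Slc12a1 to -0.30 for Pvalb.

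**Figure D5:**
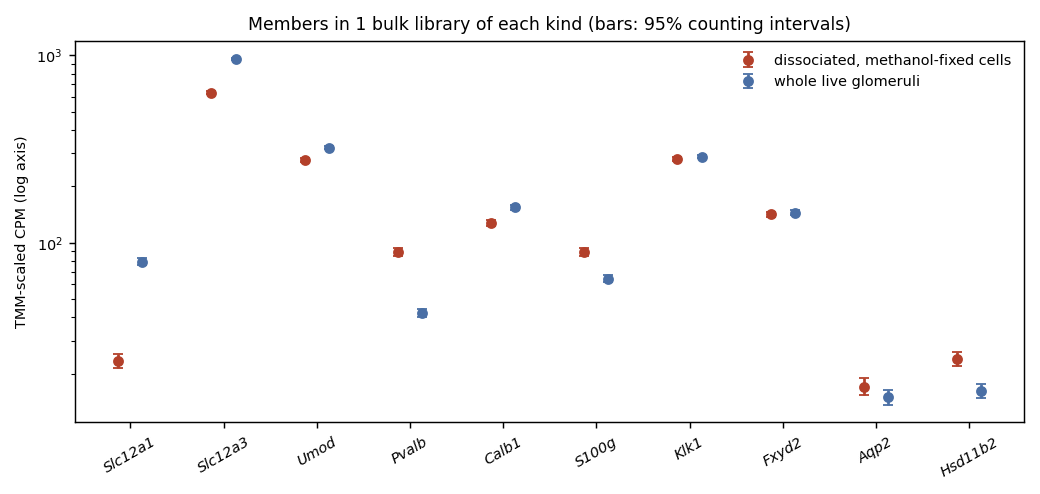
TMM-scaled CPM of each member, on a log axis, in 1 bulk library of dissociated, methanol-fixed cells and 1 of whole live glomeruli; bars are 95% counting intervals. Slc12a1 is lower in the dissociated library (23.3 against 79.3 CPM) and Pvalb higher (89.2 against 42.2 CPM).

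Proximal tubule markers were lower in the dissociated library by far more than any member, and the members had no common direction. All 8 were past 2-fold lower in the dissociated library, with a median log2 ratio of -6.51, and their sum was 1.05% of the whole-library level, against 81.6% for the 10 members summed. Slc34a1 had 32 counts in the dissociated and 9677 in the whole library. Beside the 19.1% of all genes past 2-fold lower, the transport list had 4 of 18 genes past 2-fold lower and none higher, among them Sgk1 (-1.54), Nr3c1 (-1.15) and Kcnj16 (-1.05). Of 10 calcium and magnesium genes past the filter, Slc8a1 (-1.61) and Atp2b4 (-1.40) were past 2-fold lower. Of 11 transcription factors, Mecom (-3.25) and Irx3 (-1.27) were. Of 10 family relatives 7 were, led by Slc12a2 (-3.56), Fxyd1 (-2.10) and Slc12a5 (-2.07), and no pathway gene was past 2-fold higher. Slc12a2 was a gene of the non-tubular types in the Drop-seq libraries.

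Levels between members were compared per exon length in the bulk libraries, as RPKM (reads per kilobase of exon, from the TMM-scaled CPM and GENCODE exon lengths). The length was the union of all annotated exons of a gene, 4005 bases for Fxyd2 and 11119 for Slc12a3. It can exceed the length of the transcript made, so the order between members depends on it. Klk1 was highest in both, at 261 RPKM in the dissociated and 267 RPKM in the whole library, followed by S100g (186 and 134 RPKM) and Umod (99.7 and 116 RPKM). Pvalb was 85.7 RPKM in the dissociated and 40.5 RPKM in the whole library, and Slc12a3 56.8 and 86.0 RPKM. Fxyd2 (35.4 and 36.2 RPKM) and Calb1 (26.2 and 31.8 RPKM) followed. Hsd11b2 (13 and 8.77 RPKM), Aqp2 (12 and 10.5 RPKM) and Slc12a1 (4.05 and 13.8 RPKM) were lowest. Per length, Slc12a1 was thus the lowest member in the dissociated library, and Hsd11b2 in the whole library.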

How the data were processed

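Drop-seq and bulk RNA sequencing tables of mouse glomeruli were used as the authors deposited them, as raw counts: UMI counts per gene and barcode in 4 libraries and read counts per gene in 2 bulk libraries. STAR and HTSeq are named in the submitters' processing notes, and their versions, the genome build, the annotation and the strand setting are not given in the sources used here. Bulk rows that name no gene were left out (no feature 6.14% in the dissociated and 9.68% in the whole library, ambiguous 3.87% and 3.77%, not unique 14.7% and 9.47%).

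Cells with at least 300 genes and at most 20% mitochondrial UMIs were clustered with scanpy 1.11.5 without the members and pathway lists, and clusters were named from marker lists. Doublets were not called or removed. UMIs were summed per library and class (at least 20 cells in at least 3 libraries, otherwise not tested) and tested with edgeR 4.0.16 (R 4.3.3), TMM scaling and the library as a block, since each library holds all classes. Genes needed 10 counts in at least 4 sums. DESeq2 1.42.0 was an alternative. Both tests were tried on simulated counts. Bulk libraries, 1 a group, were compared as TMM-scaled CPM with a prior count of 2, at least 100 counts and 2-fold. Intervals are 95% and cover counting error only, and a count of 0 allows 3 counts. The members and lists were chosen with earlier results of these data known. Named genes are the members, up to 5 pathway genes in each direction per list and comparison that passed the threshold and moved the same way in every library, and the 3 most like genes. Fxyd6, the 1 higher gene of its list, and Atp2b1 and Cnnm2 between segments fall outside that rule and were named after their values were seen. Other settings tried are given in the closing section. Some pathway genes that this rule would name are not reported here.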

Additional observations from a re-analysis of the deposited data

Results flagged for a closer look

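In 63 groups of 4 libraries, 10 had a highest or lowest library farther from the rest than Dixon's 95% limit. That limit flags about 1 group in 20 by chance for independent, normal values, which sparse counts from shared libraries are not. The number flagged is therefore a description. Slc12a1 in CNT/PC-like cells was 755.51 CPM in library 4 and 0 in the others, from 1 barcode, and in endothelial-like cells its highest library had 2.77 CPM, from 1 UMI. Slc12a3 reached 55.1 CPM in podocyte-like and 95.1 CPM in endothelial-like cells, and Pvalb 49.5 CPM in endothelial-like cells. Calb1 was lowest in DCT-like cells of library 3 (1366.89 CPM), Fxyd2 highest in DCT-like cells of library 1 (10362 CPM), and Hsd11b2 highest at 6.98 CPM in parietal epithelial-like cells, from 1 UMI. The Slc12a1 and Hsd11b2 groups had 0 in their other libraries, where any count passes the limit. Library 2 had the highest share of tubular-like cells, 10.3%, and of DCT-like cells, 6.07%.

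Barcodes left out of the comparisons also held the members. Over the mitochondrial limit, the 10 members summed to 29131.7 CPM, and to 34935, 29724, 27018 and 25564 CPM in libraries 1 to 4, against 119 to 309 CPM in podocyte-like cells. Tubular markers held 1.32% of UMIs in these 584 barcodes and 1.46% in tubular-like cells. The distal convoluted tubule list held 0.286% and 0.276%, and the connecting tubule and principal list 0.0107% and 0.0471%. The limit thus removed barcodes rich in tubular markers. Shares of cells and of UMIs by class hold for kept cells only. In barcodes under 300 genes they summed to 5242.79 CPM.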

How the results depend on the processing

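The 7 members that passed the low-count filter through both sides kept their direction and their call in each setting of the Drop-seq tests in which they were tested, with a largest adjusted p (edgeR or DESeq2) of 1.94e-30 between types, for S100g, and 0.000182 between segments, for Pvalb. Between types, 3013 genes were lower against all other cells summed, and leaving out 1 library gave 1992 to 2140 genes higher, 1503 to 1853 lower and 7 to 9 members higher, since some members then failed the count filter. Between DCT-like and CNT/PC-like cells, DESeq2 called 55 genes higher and 66 lower, no filter gave 245 higher, and leaving out 1 library gave 65 to 103 higher, 50 to 94 lower and 3 members lower. Without the sum of fewer than 20 cells, chosen after seeing the data, 3 members were lower. Without the replicate block, 127 genes were higher and 99 lower, and no member's call changed. A limit of 10% mitochondrial UMIs left too few tubular-like cells for either test, and at least 500 genes or resolution 1.0 gave no segment test. In bulk, no scaling factor gave 759 genes and 0 members past 2-fold higher, at least 10 counts gave 2183 higher and 3991 lower, and no filter 3021 and 5056. Over the podocyte markers, chosen after seeing the data, 154 genes were higher and 8720 lower, 0 members higher and 7 lower, and Pvalb was -0.30, the other direction. The cause was not tested. The podocyte-like percentages of the tubular-like level at the 10% limit were 3.86 (Slc12a1), 1.85 (Slc12a3), 1.29 (Umod), 1.16 (Pvalb), 0.966 (Fxyd2), 0.0775 (Aqp2) and 0.0686 (Hsd11b2). Unthinned, co-detection was 7.41% (Slc12a3 in Slc12a1 cells), 91.9% and 73.3% (Pvalb and Umod in Slc12a3 cells), 73.0% and 79.9% (Klk1 and Calb1 in S100g cells) and 89.0% (Hsd11b2 in Aqp2 cells). Over all alternative settings, 118 summary values stayed the same and 38 moved. Of the single-gene values, 268 stayed the same, 23 moved and 1, the bulk Pvalb ratio over the podocyte markers, reversed. The same meant a number of genes within a set fold, a bulk ratio within its counting interval, or a percentage within the SD over libraries. For a tested gene it meant the same direction and call.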
